A study of Mus musculus with 4 samples.

Results

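The genes described here are 46 collagens, laminins and other genes of the extracellular matrix, chosen by symbol from the 32285 genes counted in each file. By role they comprise 7 fibrillar collagens, 15 basement membrane genes, 5 other collagens, 7 matrix glycoproteins, 3 small leucine-rich proteoglycans and 9 genes that trim, crosslink or otherwise remodel the matrix. The cells were muscle stem cells of MyoD-KI mice, which carry a red tdTomato reporter at the gene for the muscle transcription factor MyoD. They were cultured for 5 days in medium rich in serum, sorted for high reporter signal, and profiled with droplet 3′ single-cell RNA sequencing. There is 1 group, labelled MyoD-tdTomato-high. The age and sex of the mice and whether animals were pooled are not given in the sources used here, and cells with low reporter signal were not analysed here. A reporter that selects cells by Myod1 activity limits the population to cells already expressing that gene.

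The 4 files carry replicate numbers, but each pair shared 5946 to 5965 cell barcodes, which was 99.9% of the smaller file. They were therefore counted as repeat libraries of 1 set of cells (n = 1), with no test between conditions and no p-value. Ranges over files show how repeatable the libraries were, and intervals are 95% intervals at the mean count of 1 file. Both leave out variation between animals and cultures. The 5481 kept cells were those found in each of the 4 files that had 1000 genes or more and less than 10% mitochondrial counts. Total depth was 62627341 to 68898900 unique molecular identifiers (UMIs, tags that count single captured molecules) per file, with a median of 10369 to 11382 per kept cell. Levels are CPM, the UMIs of a gene per 1000000 UMIs of the same cells. Since the chemistry reads transcript ends, levels were not scaled by length, and no order of level between genes is read from them.

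The extracellular matrix of muscle has a basement membrane that wraps each fibre and its stem cells, and an interstitial layer between fibres. Laminins and type IV collagen form the networks of the basement membrane, linked by nidogens and perlecan. Fibrillar collagens, with type VI collagen, fibrillins and fibronectin, build the interstitial layer, which is made largely by fibroblasts. Muscle stem cells also make matrix of their own, and proteinases with their inhibitors turn it over as the cells move and fuse.

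Promoters are shown for 5 of these genes because their levels diverged: Col5a3, Mmp14 and Timp1 were at least 2-fold lower in cells with much Myog, while Col8a1 and Lama2 were not. The sequences are windows of 250 bases before the start annotated by RefSeq (GRCm38.p6), 5′ to 3′ on the gene's strand. Capitals mark the E-box CANNTG, the general motif of basic helix-loop-helix factors such as MyoD and myogenin.
Col5a3: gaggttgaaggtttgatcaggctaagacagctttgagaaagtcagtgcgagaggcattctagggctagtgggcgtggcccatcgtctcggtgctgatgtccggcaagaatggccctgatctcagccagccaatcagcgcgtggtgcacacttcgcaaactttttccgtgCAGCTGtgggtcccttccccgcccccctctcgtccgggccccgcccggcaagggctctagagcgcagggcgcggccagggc
Mmp14: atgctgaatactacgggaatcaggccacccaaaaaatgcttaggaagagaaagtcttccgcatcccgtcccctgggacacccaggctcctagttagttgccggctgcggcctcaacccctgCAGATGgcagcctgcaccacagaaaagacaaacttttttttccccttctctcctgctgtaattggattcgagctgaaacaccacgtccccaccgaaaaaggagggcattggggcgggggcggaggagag
Timp1: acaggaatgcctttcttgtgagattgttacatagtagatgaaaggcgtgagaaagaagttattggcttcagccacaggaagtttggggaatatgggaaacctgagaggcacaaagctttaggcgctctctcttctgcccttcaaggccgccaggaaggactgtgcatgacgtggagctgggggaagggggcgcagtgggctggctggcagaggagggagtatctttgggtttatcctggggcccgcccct
Col8a1: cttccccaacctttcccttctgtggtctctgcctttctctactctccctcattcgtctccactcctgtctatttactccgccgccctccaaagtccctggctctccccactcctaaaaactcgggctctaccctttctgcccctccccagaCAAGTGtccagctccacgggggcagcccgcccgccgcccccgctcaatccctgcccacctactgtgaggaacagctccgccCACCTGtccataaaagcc
Lama2: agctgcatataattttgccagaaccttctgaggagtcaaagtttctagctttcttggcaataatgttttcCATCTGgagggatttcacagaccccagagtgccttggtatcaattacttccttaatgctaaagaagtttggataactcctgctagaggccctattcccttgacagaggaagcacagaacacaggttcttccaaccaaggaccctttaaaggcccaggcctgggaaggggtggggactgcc
The Col5a3 window is chr9:20815068-20815317 on the minus strand. The Mmp14 window is chr14:54431348-54431597 on the plus strand. The Timp1 window is chrX:20869916-20870165 on the plus strand. The Col8a1 window is chr16:57754738-57754987 on the minus strand. The Lama2 window is chr10:27616943-27617192 on the minus strand. The Col5a3, Timp1 and Col8a1 windows end at the start of the gene in the GENCODE annotation used below for coordinates, and the Mmp14 window 14 bases before it. For Lama2 the RefSeq start lies 2816 bases inside the GENCODE gene, so that its window covers an intron there and not the sequence before the gene. The windows overlap no annotated exon.

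RefSeq promoters were found for 32 of the 46 genes, 25 of which were measured well enough to be compared. Letters were searched on both strands. A gene counted as having a motif if any of its RefSeq windows matched. CANNTG was found for 8 of 18 genes lower in Myog-high cells and 6 of 7 of the others. This compares with 69.3% of 27025 genes with windows of the same length. Lama2, whose window shown above covers an intron in GENCODE, is among the 6. The narrower CAGCTG, which CANNTG includes, was in 3 of 18 and 2 of 7, against 14.72% of genes. The GC box GGGCGG was in 15 of 18 and 4 of 7, against 35.36%, and CCAAT was in 10 of 18 and 1 of 7, against 37.49%. TATAAA was in 4 of 18 and 0 of 7, against 14.33%, and the AP-1 motif TGANTCA was in 1 of 18 and 0 of 7, against 7.819%. A match is a run of letters in this window and not a measured binding site.

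Several of these genes are neighbours on GRCm38. Col4a1 (chr8:11198423-11312826, minus strand) and Col4a2 (chr8:11312805-11449287, plus strand) lie head to head with starts that overlap by 22 bases. Col3a1 and Col5a2 on chromosome 1 lie tail to tail, 24614 bases apart. Col6a2 and Col6a1 lie on chromosome 10 on the same strand, 85161 bases apart.

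The sorted cells held substantial matrix RNA. Together the 46 genes took 2775.5 CPM of kept cells, or 0.278% of UMIs. Of them, 7 were at 100 CPM or above, 17 between 20 and 100, 10 between 5 and 20, 6 between 1 and 5, and 6 under 1 CPM. The 7 at 100 CPM or above were Sparc, Timp2, Lama2, Col5a2, Bgn, Timp1 and Col3a1. Sparc encodes a collagen-binding glycoprotein also called osteonectin, and it stood at 910, 916, 915 and 922 CPM in the 4 files.

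Most genes that mark matrix-producing fibroblasts were nearly absent. Lum (lumican, a proteoglycan of collagen fibrils) was found in 2 of 5481 cells, at 0.0115 CPM. Dcn (decorin, of the same family) was at 0.327 CPM in 62 cells. Col1a1, which encodes the main chain of type I collagen, was at 0.408 CPM, with UMIs in 50 cells, and 1 cell held 20.6% of them. Col1a2, the other type I chain, was above the 5 CPM used below as a minimum, at 21.5, 21.6, 22.2 and 20.8 CPM. The 3 other genes under 1 CPM were Col11a1, Col15a1 and Lama4, at 0.277 to 0.508 CPM. Of 11 fibroblast markers, 9 were under 1 CPM, with Tcf21 at 0. The exceptions were Col3a1, at 110 CPM, and Ly6a, which was also above the 5 CPM minimum. The list shares Col3a1, Dcn and Lum with the matrix genes. UMIs of Pdgfra, Dcn, Lum or Dpt were in 167 cells, of which 2 held more than 1 of the 4 genes and 161 also held Myod1. Free RNA in droplets can also give single UMIs. All 5 endothelial markers (Tie1 at 0) and all 5 immune markers were under 1 CPM, as were 3 of 4 glial markers, 3 of 5 tenocyte markers (Scx was at 92.2 CPM) and 2 of 8 pericyte or smooth muscle markers (Acta2 was at 1425 CPM). The list for pericytes holds Notch3, which is also on the list for stem cells.

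Cells were compared by Myog, the gene for myogenin, a factor that rises as myoblasts commit to differentiation. Cells under 400 CPM of Myog (2572 Myog-low cells) were set against those at 1500 CPM or more (2330 Myog-high cells), with 579 cells between. Cells were split by that gene, so Myog itself (83.0 against 3884 CPM) only checks the split. All 10 myocyte markers, Myog among them, were over 2-fold higher in Myog-high cells, from Tnnt1 (log2 2.60), Ttn (3.30) and Mymk (4.13) to Mymx (5.57), Myh3 (5.74) and Actc1 (6.06). Of 7 measured stem or progenitor markers 5 were lower, among them Pax7 (log2 -3.21), Notch3 (-2.79), Myf5 (-2.71) and Sdc4 (-1.11), while Itga7 stood at 0.29 and Spry1 at 0.66. Median depth was alike, 10903 UMIs per cell and file in Myog-low and 11087 in Myog-high cells.

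Matrix genes were lower in Myog-high cells almost throughout. Their summed level was 3561 CPM in Myog-low, 2777 in middle and 1933 in Myog-high cells. For 34 of the 46, which had at least 5 CPM over kept cells, log2 ratios of CPM + 1 were computed, and a difference was called at 2-fold. Of those, 24 were lower and 0 higher, whereas 16.9% of all 9794 genes were lower and 7.28% higher. Of the 24 called genes, 6 had under 5 CPM in Myog-high cells (Col5a3, Col6a2, Nid1, Fbn2, Adamts1 and Lox) and passed the minimum through cells with less Myog. Among the genes of at least 20 CPM over kept cells, 16 of 24 matrix genes were lower and 0 higher, against 12.8% and 8.09% of 5967 genes. This minimum was also read over all kept cells. Called genes under 20 CPM in Myog-high cells, such as Lamb1 (7.80 CPM) and Col1a2 (9.45 CPM), passed it through cells with less Myog. The median log2 ratio was -1.64 for these 34 genes and -0.26 for all 9794. Among all genes called, 30.2% were higher on the CPM scale, 44.0% after centring on the median (a shift of -0.26) and 46.9% with TMM factors (a shift of -0.31). The count of 24 matrix genes was the same under each of these scalings.

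**Figure D1:**
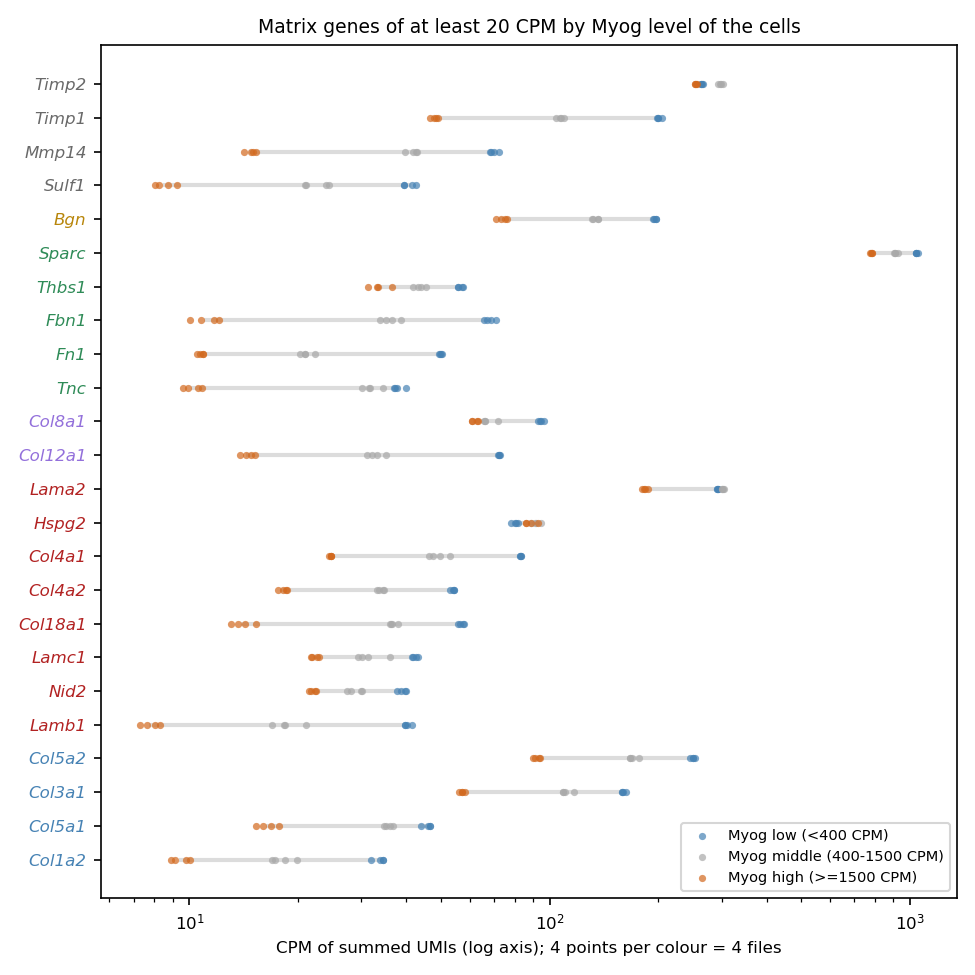
Levels of the 24 matrix genes of at least 20 CPM (y axis, names coloured by role) in CPM on a log axis, with 4 points per colour for the 4 files, in Myog-low, middle and Myog-high cells. For Timp1 the Myog-high points lie at 46.6 to 49.0 CPM and the Myog-low points at 199 to 205 CPM, while the points for Timp2 and Hspg2 lie close together.

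Fibrillar collagens were lower in every measured case (5 of 5, with 2 of 7 under the 5 CPM minimum). Col5a2, a chain of the type V collagen that regulates fibril diameter, was at 254, 250, 251 and 245 CPM in Myog-low cells and 93.2, 89.8, 90.8 and 94.1 CPM in Myog-high cells. The files of the 2 groups did not overlap, and the log2 ratio was -1.43 (-1.50 to -1.37). Col3a1, the chain of type III collagen, was at 160, 163, 159 and 158 CPM against 55.9, 57.1, 58.2 and 57.1 CPM, a log2 ratio of -1.47 (-1.55 to -1.39). Col5a1 was at 45.7 against 16.5 CPM (log2 -1.42, -1.57 to -1.27). Col1a2 was at 33.7 against 9.45 CPM (log2 -1.73, -1.92 to -1.54). Col5a3, the third type V chain, had the lowest ratio of the 34 genes, with few UMIs in Myog-high cells. It was at 14.0, 13.4, 14.4 and 14.1 CPM in Myog-low cells and 1.91, 0.963, 1.23 and 1.63 CPM in Myog-high cells (log2 -2.64, -3.01 to -2.26). Its middle cells were at 3.68 CPM, nearer to the Myog-high than to the Myog-low cells.

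Basement membrane genes were split: 5 of 11 measured genes were at least 2-fold lower, and 4 of 15 were under the minimum. Col4a1, which encodes a chain of the main type IV collagen, was at 83.4, 83.0, 82.8 and 83.5 CPM in Myog-low cells and 24.4, 24.7, 24.7 and 24.7 CPM in Myog-high cells (log2 -1.72, -1.84 to -1.60). Col4a2, its partner chain, was at 53.8 against 18.3 CPM (log2 -1.51, -1.65 to -1.37). Both chains were thus lower by similar ratios, in files that did not overlap. Lamb1, the laminin beta 1 chain, was at 40.2 against 7.80 CPM (log2 -2.23, -2.43 to -2.03). Col18a1, whose product carries endostatin at its end, was at 56.9 against 14.1 CPM (log2 -1.94, -2.10 to -1.79). Nid1 (nidogen 1, a linker of laminin and type IV collagen) was at 17.0 against 3.48 CPM, a log2 ratio of -2.01.

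The laminin chains differed from one another. Lama2, the alpha chain of the laminin that surrounds muscle fibres, was at 293, 293, 292 and 291 CPM in Myog-low, 303 CPM in middle and 184, 188, 182 and 180 CPM in Myog-high cells (log2 -0.67, -0.72 to -0.62). Lamc1, the shared gamma chain, had a log2 ratio of -0.89, and Nid2 one of -0.80. Lama5 had a log2 ratio of -0.57. Lamb2, the beta chain of synaptic laminins, was at 12.4, 11.5, 12.7 and 11.4 CPM against 11.4, 10.8, 10.8 and 11.0 CPM. These ranges overlap, and the log2 ratio of -0.11 (-0.33 to 0.10) included 0. Hspg2, which encodes perlecan, a large heparan sulphate proteoglycan, was the only measured gene with a positive ratio on the CPM scale; Timp2 and Lamb2 join it under median centring or TMM. It stood at 80.8, 80.2, 78.2 and 81.7 CPM in Myog-low cells and 92.8, 86.1, 88.8 and 85.9 CPM in Myog-high cells (log2 0.14, 0.06 to 0.22), which is far under 2-fold. The 4 genes under the minimum, Agrn, Col4a5, Col15a1 and Lama4, were at 2.83, 3.32, 0.277 and 0.508 CPM over kept cells.

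Among the other collagens, 3 of 4 measured genes were lower. Col12a1, a collagen that sits on the surface of fibrils, was at 72.9, 72.5, 71.8 and 72.3 CPM in Myog-low and 15.2, 13.9, 14.4 and 14.8 CPM in Myog-high cells (log2 -2.24, -2.39 to -2.09). The type VI chains had log2 ratios of -1.90 for Col6a1 (28.5 against 6.94 CPM) and -2.12 for Col6a2 (14.0 against 2.45 CPM). Their partner Col6a3 was under the minimum, at 8.15 CPM in Myog-low and 0.968 CPM in Myog-high cells. Col8a1, a short-chain network collagen, was the exception at 94.4 against 62.0 CPM (log2 -0.60, -0.68 to -0.51).

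Of the matrix glycoproteins, 4 of 6 measured genes were lower. Fbn1, the major protein of elastic microfibrils, was at 67.1, 65.7, 68.9 and 71.2 CPM in Myog-low cells and 12.1, 11.7, 10.1 and 10.7 CPM in Myog-high cells (log2 -2.51, -2.68 to -2.34). Its relative Fbn2 was at 9.08 against 2.43 CPM, a log2 ratio of -1.55. Fn1 (fibronectin, an integrin ligand) was at 49.7 against 10.8 CPM (log2 -2.11, -2.28 to -1.94). Tnc (tenascin C, a glycoprotein of remodelling matrix) was at 37.9 against 10.2 CPM (log2 -1.80, -1.98 to -1.61). Its middle cells stood at 32.0 CPM, close to the Myog-low cells, whereas those of Fn1 stood at 21.1 CPM. Sparc was at 1043 against 781 CPM (log2 -0.42, -0.44 to -0.39) and Thbs1 (thrombospondin 1) at 56.5 against 33.6 CPM (log2 -0.74). Postn (periostin) was under the minimum, at 5.55 against 1.18 CPM. Bgn (biglycan), the one measured small leucine-rich proteoglycan, was at 193, 197, 198 and 194 CPM in Myog-low and 73.4, 76.0, 75.3 and 71.1 CPM in Myog-high cells (log2 -1.39, -1.46 to -1.32).

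The remodelling genes held a contrast between 2 inhibitors of matrix metalloproteinases. Timp1 was at 205, 200, 200 and 199 CPM in Myog-low cells and 48.4, 49.0, 46.6 and 47.6 CPM in Myog-high cells (log2 -2.05, -2.13 to -1.96). Timp2, which also takes part in activating Mmp2 on the cell surface, was at 263, 263, 266 and 265 CPM against 256, 253, 253 and 256 CPM (log2 -0.05, -0.10 to -0.01). Middle cells were highest for Timp2, at 298 CPM. Mmp14, the membrane-anchored collagenase that activates Mmp2, was at 69.9, 69.0, 68.3 and 72.6 CPM in Myog-low and 15.3, 15.0, 14.1 and 14.8 CPM in Myog-high cells (log2 -2.17, -2.31 to -2.02). Mmp2 and Timp3 were under the minimum, at 6.86 against 1.24 CPM and at 2.54 against 0.400 CPM. Lox, which crosslinks collagen and elastin, was at 18.6, 17.8, 17.7 and 18.6 CPM against 2.25, 2.79, 2.79 and 2.23 CPM (log2 -2.45, -2.77 to -2.14). Sulf1, a sulphatase that edits heparan sulphate, was at 40.7 against 8.54 CPM (log2 -2.13, -2.32 to -1.94). Its relative Sulf2 had a log2 ratio of -1.52, and the proteinase Adamts1 one of -1.80. In all, 6 of 7 measured remodelling genes were at least 2-fold lower and Timp2 was not.

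**Figure D2:**
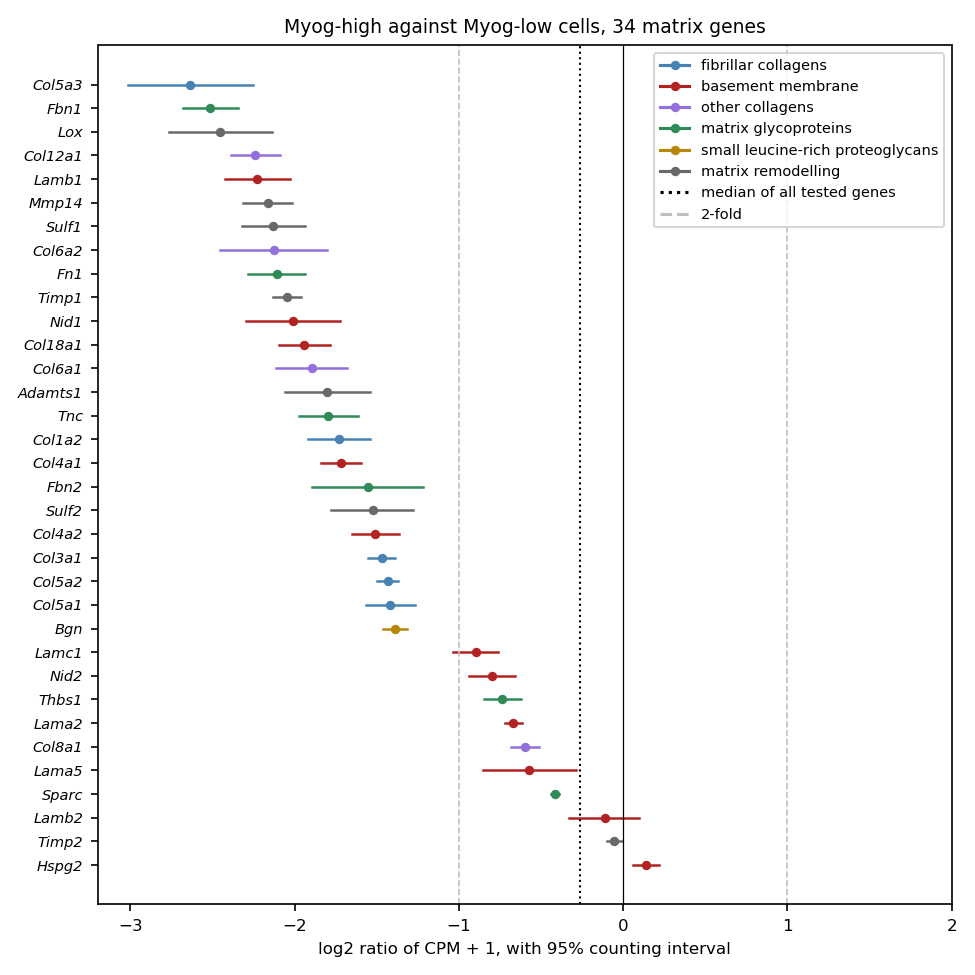
Log2 ratio of CPM + 1 in Myog-high over Myog-low cells for the 34 measured genes, with 95% counting intervals coloured by role. Dashed lines mark 2-fold and the dotted line the median of all 9794 genes (-0.26). The points of 24 genes lie beyond 2-fold to the left, from Bgn at -1.39 to Col5a3 at -2.64, and none lies beyond 2-fold to the right.

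The pattern was present in cycling and in non-cycling cells taken separately. Cells with at least 200 CPM of Mki67 and Top2a, genes of proliferating cells, were counted as cycling. Among cycling cells (320 Myog-high against 1399 Myog-low), 15 of the 34 genes were lower, with 5.35% of all genes lower. Among the rest (2010 against 1173), 28 were lower, with 17.1% of all genes lower. The median log2 ratio of the 34 genes was -0.93 in cycling and -1.92 in the other cells, and the difference was not tested. Cycling Myog-high cells also held less Myog than other Myog-high cells, at 2795 against 4108 CPM. They held less of the muscle actin gene Acta1, at 1558 against 5184 CPM, and more Pax7, at 29.5 against 6.52 CPM. The part of these values in the ratios was not tested. Sulf1 had a ratio of -1.02 in cycling and -2.88 in non-cycling cells, and Tnc one of -0.63 and -2.38. Hspg2 stood at 0.11 and 0.12.

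Matrix genes also differed within the Myog-high cells. Splitting these at 2996 CPM of Acta1, the sarcomeric actin gene, gave 2 parts of 1165 cells. The lower part also held more RNA of cycling genes, with Mki67 at 106 against 18.0 CPM and Top2a at 220 against 37.6 CPM, and less Myog, at 3382 against 4333 CPM. Of the 34 genes, 12 were at least 2-fold lower in the upper part and 0 higher, with 7.86% of all genes lower and 2.89% higher. The minimum of 5 CPM was read over all kept cells. Of the called genes, Lama5, Lamb1, Sulf1 and Sulf2 were under it in the upper part, at 2.75, 4.89, 3.56 and 2.53 CPM. Mmp14 was at 6.51 CPM in the upper and 24.1 CPM in the lower part. Sulf1 was at 3.56 against 14.1 CPM and Fbn1 at 5.38 against 17.6 CPM. Lama2 was at 180 against 188 CPM, and Nid2 at 24.4 against 19.4 CPM. Median depth was 11855 UMIs in the upper and 10230 in the lower part. The part of cycling, Myog and depth in these differences was not tested.

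Within Myog-low cells, detection of Pax7 went with modestly higher matrix levels. Each cell was thinned to 5000 UMIs per file, which left out 284 shallower cells of all kept cells. On average 889 Myog-low cells with a Pax7 UMI were set against 1510 without. Detection was read in each file separately, so the same cell could fall in different groups in different files. A cell without a Pax7 UMI at this depth may still hold Pax7 RNA. Of the 34 genes, 0 passed 2-fold in either direction, and over all genes 0.0511% were called higher and 0% lower. Ratios were above 0 for 32 of the 34 genes and for 6256 of all 9794, with a median log2 ratio of 0.37 against 0.08 over all genes. Type VI collagen led, with Col6a1 at 48.5, 51.0, 48.1 and 45.2 CPM where Pax7 was found and 23.4, 26.4, 21.7 and 26.8 CPM where it was not. The files did not overlap, and the log2 ratio was 0.95 (0.66 to 1.23). Col6a2 was at 23.6 against 12.8 CPM (log2 0.83, 0.43 to 1.23) and Tnc at 55.3 against 33.0 CPM (log2 0.73, 0.47 to 0.99). At the other end stood Timp1, at 194 against 218 CPM (log2 -0.16, -0.28 to -0.05, and 0.67 over all kept cells), and Timp2, at 264 against 271 CPM (log2 -0.03, -0.14 to 0.07). Thbs1 was at 54.3 against 53.0 CPM (log2 0.03, -0.20 to 0.27). All 10 myocyte markers had ratios below 0 in this comparison, with a median log2 ratio of -0.44. A Pax7 UMI was found in 38.4% of cells under 200 CPM of Myog and in 25.5% of those from 200 to 400 CPM. The part of these values in the matrix ratios was not tested.

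Between cycling and other Myog-low cells few matrix genes differed by 2-fold. Of 34 genes, 1 was lower and 0 higher, against 1.12% and 4.45% of all genes. Ratios lay below 0 for 26 of the 34 genes and for 4796 of all 9794, with a median log2 ratio of -0.38 and 0.01. The direction was not kept over all kept cells, which mix levels of Myog: there 14 ratios whose intervals lay below 0 were above 0, among them Col12a1 (-0.43 and 0.55) and Timp1 (-0.36 and 0.50). Sulf1 was at 28.5, 28.8, 28.3 and 27.2 CPM in the 1399 cycling cells and 58.1, 65.9, 58.2 and 65.7 CPM in the 1173 others (log2 -1.11, -1.27 to -0.94). The ratio of Sulf1 was -0.70 with cycling set from 500 CPM and -0.06 over all kept cells, where it is no longer past 2-fold. Just inside 2-fold were Col8a1, at 69.3 against 137 CPM (log2 -0.97, -1.08 to -0.86), and Col6a1, at 21.2 against 40.9 CPM (log2 -0.92, -1.11 to -0.73). Lama2 was at 227 against 403 CPM, a log2 ratio of -0.83. The highest ratios were those of Fbn2 (11.0 against 5.91 CPM, log2 0.79, 0.41 to 1.18), Nid1 (18.7 against 14.2 CPM, log2 0.38) and Lama5 (8.33 against 7.08 CPM, log2 0.21, -0.17 to 0.59). The type IV chains Col4a1 and Col4a2 both stood at 0.09, with intervals that include 0. Cycling cells were deeper, with a median of 12690 UMIs against 9150. Their level of Malat1, a nuclear noncoding RNA, was lower, at 6408 against 10214 CPM. The part of these values in the ratios was not tested.

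**Figure D3:**
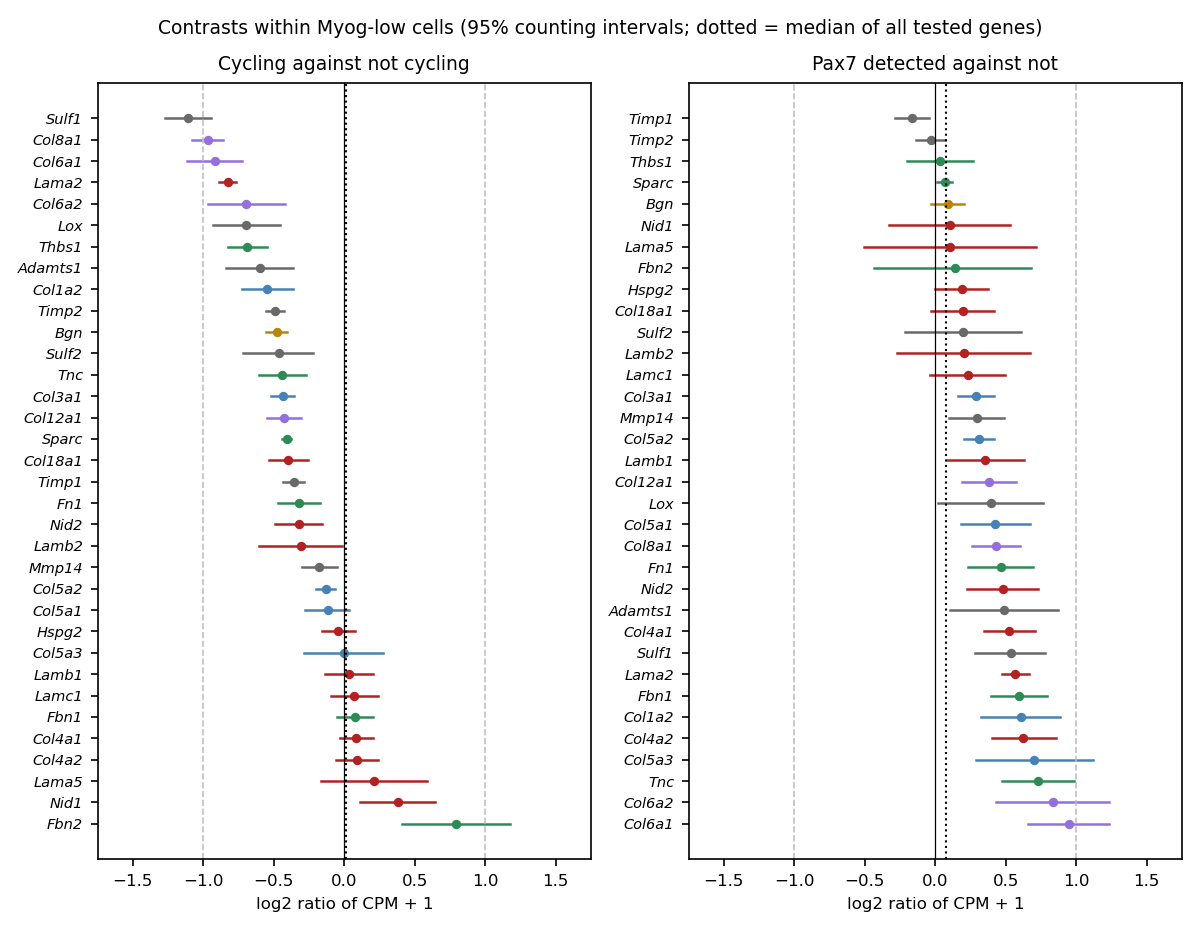
Log2 ratios of CPM + 1 for the 34 genes within Myog-low cells, with 95% counting intervals and roles coloured as in the plot of Myog ratios: cycling over other cells on the left, Pax7 detected over not detected on the right. Dashed lines mark 2-fold, which Sulf1 passes on the left, at -1.11, and no gene passes on the right.

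Fibrillar collagens took a smaller share of UMIs in Myog-high cells when set against the basement membrane genes. The share is of UMIs not scaled by length, and is compared only between groups of cells. The fibrillar share of their joint UMIs was 40.8% (40.3 to 41.3) in Myog-low, 35.0% (33.9 to 36.1) in middle and 30.3% (29.6 to 31.0) in Myog-high cells. The difference between Myog-high and Myog-low cells was -10.4 percentage points (-11.3 to -9.54), with -10.9 to -9.57 in single files. In finer bins the share stood at 41.1% under 200 CPM of Myog, 29.7% from 3000 to 6000 CPM and 34.4% at 6000 CPM or more, so that the order was not kept at the top. Genes were then left out, a choice made after the data were seen. The only pair left out was Lama2 and Hspg2, 2 basement membrane genes with log2 ratios of -0.67 and 0.14. With such ratios, leaving out both was bound to shrink the difference. Without both Lama2 and Hspg2 the difference was -1.33 points, with shares of 58.3% and 57.0%. Without Lama2 alone it was -9.02 points, and without Hspg2 alone -7.80 points. Within Myog-high cells the share was 35.2% in the lower and 24.7% in the upper Acta1 part.

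**Figure D4:**
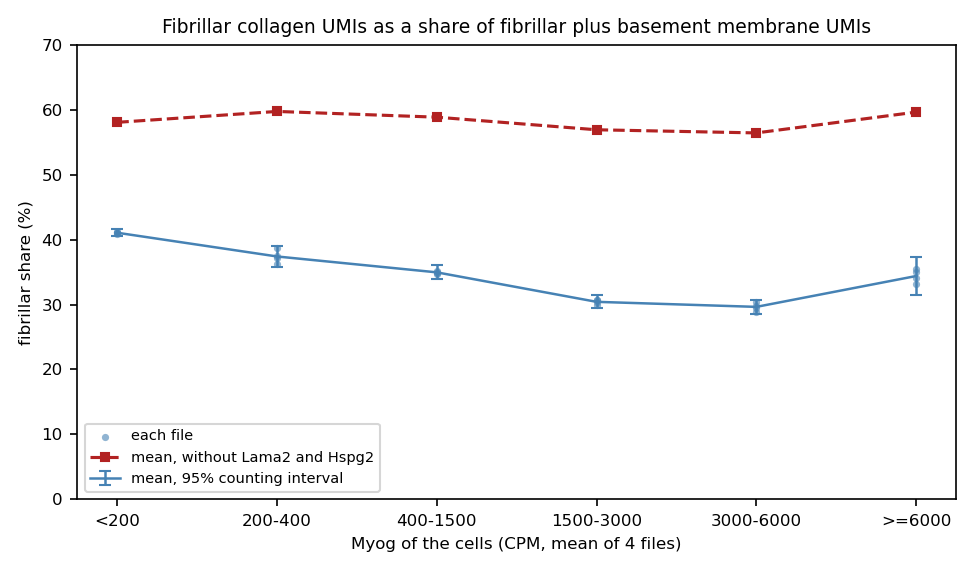
Fibrillar collagen UMIs as a percentage of fibrillar plus basement membrane UMIs (y axis) in 6 bins of Myog (x axis, CPM), as points for each file and means with 95% counting intervals, and as means without Lama2 and Hspg2 (dashed). The solid line goes from 41.1% to 29.7% and back to 34.4%, and the dashed line stays between 56.5% and 59.8%.

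Matrix genes were not spread evenly over Myog-low cells. For each gene the 257 cells with the highest level in replicates 1 and 2 were read in replicates 3 and 4. Col1a2 stood 7.52 times above the Myog-low mean in its top cells, against a median of 2.15 and an upper quartile of 2.52 for 3020 genes of 20 to 50 CPM. Tnc stood 6.47 times and Col6a1 5.01 times above the mean. Col8a1 stood 5.94 times above it, against a median of 1.89 for 1597 genes of 50 to 100 CPM. Hspg2 (1.78 times) and Timp2 (1.91 times) were more even, the latter against a median of 1.67 for 1224 genes of 100 to 400 CPM. The files share cells and were not shown to hold different molecules, so these ratios are descriptions of the libraries.

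Levels of different matrix genes varied together only weakly from cell to cell. The 25 genes of at least 20 CPM in Myog-low cells were paired. Over 2399 thinned Myog-low cells, the median Pearson correlation of the 300 pairs was 0.11. The cells share libraries and depth, and sparse counts weaken correlations. The chains Col4a1 and Col4a2, which lie head to head, had the highest at 0.60, and the next was Lama2 with Sulf1 at 0.34. Values reached 0.2 in 43 pairs and -0.2 in 0. Pairs of other genes are not given here, so these values are not set against a background. The lowest, -0.19, was between Lama2 and Timp1. Cells with little Malat1, described below, were not left out of these correlations. In such Myog-low cells Lama2 and Sulf1 were lower (log2 -2.97 and -2.04) and Timp1 was higher (0.69). The part of these cells in the correlations was not tested.

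The genomic length of a gene went with its level in cells that held little Malat1. Of the Myog-low cells, 275 were under 1000 CPM of Malat1 (349 CPM on average, against 8516 CPM in the other 2297), and this comparison was chosen after the data were seen. Median depth was 8876 against 11176 UMIs. Of the 34 matrix genes, 11 were at least 2-fold lower in the Malat1-poor cells and 0 higher, near the 26.7% of all genes lower and the 0.0919% higher. Lama2, which spans 640 kb, was at 39.5 against 316 CPM (log2 -2.97, -3.26 to -2.69). Sulf1, of 169 kb, was at 9.89 against 43.6 CPM (log2 -2.04), and Col8a1, of 130 kb, at 28.9 against 100.5 CPM (log2 -1.77). Timp1, of 4.57 kb, was higher there, at 309 against 191 CPM (log2 0.69, 0.59 to 0.80), as was Bgn, of 12.3 kb, at 284 against 187 CPM (log2 0.60).

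Over the 34 genes the Spearman correlation of span and ratio was -0.73, given as a description across genes that share the same cells. Over the 9790 measured genes with a span it was also -0.73. Of 13 matrix genes spanning at least 100 kb, 9 were 2-fold lower, against 79.0% of 1494 genes of that span, and of 14 under 50 kb, 0 were, against 9.06% of 6731 genes. Whether intronic reads were counted is not given in the sources used here. Over the same 9790 genes the correlation of span with the Myog ratio was -0.06. In all 467 Malat1-poor kept cells the fibrillar share was 47.6%.

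**Figure D5:**
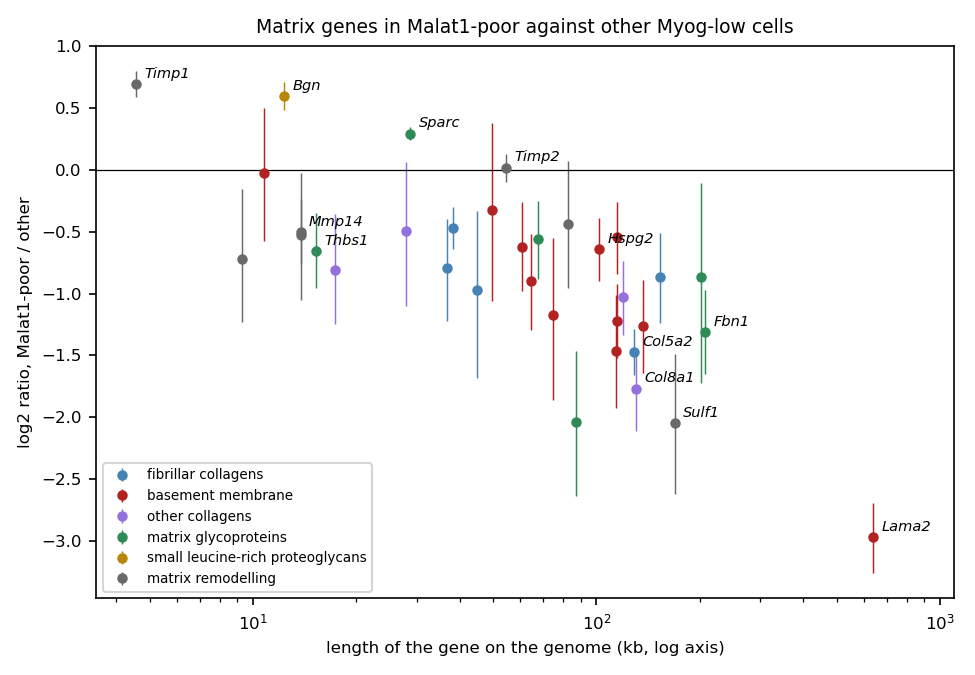
Log2 ratio of CPM + 1 in Malat1-poor over other Myog-low cells (y axis, with 95% counting intervals) against the length of the gene on the genome (x axis, kb, log axis) for the 34 measured genes, coloured by role. Timp1 and Bgn lie at the upper left, at 0.69 and 0.60, and Lama2 at the lower right, at -2.97.

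Other genes of the same pathways were read from lists that hold none of the 46 genes. Of 21 measured genes (of 26 listed) of collagen synthesis and secretion, 8 were at least 2-fold lower in Myog-high cells and 0 higher. Pcolce2, an enhancer of procollagen processing, had a log2 ratio of -2.90, Loxl3 (a lysyl oxidase) -2.50 and P4ha3 (a prolyl hydroxylase subunit) -2.45. Its relatives P4ha2 and P4ha1 stood at 0.67 and 0.64, and Ppib, a proline isomerase of the endoplasmic reticulum, at 0.29. The intracellular enzymes for collagen folding thus included genes on both sides of 0.

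Of 15 measured matrix receptors (of 22 listed), 7 were lower and 2 higher. The syndecans Sdc2 and Sdc1 and the hyaluronan receptor Cd44 had log2 ratios of -2.21, -1.95 and -1.72. Ddr1, a collagen receptor kinase, was at 77.4 CPM in Myog-low and 167 CPM in Myog-high cells (log2 1.10). Itga6, a laminin-binding integrin chain, was at 26.0 against 55.3 CPM (log2 1.06). Dag1, which encodes dystroglycan, a receptor for Lama2-type laminin and perlecan, was at 79.6 against 158 CPM (log2 0.98).

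Of 18 other measured collagens and matrix genes (of 43 listed), 7 were lower and 3 higher. The lowest ratios were those of Vcan (versican, -3.03), Has2 (a hyaluronan synthase, -2.58) and Ltbp2 (-2.22). Col25a1, a transmembrane collagen, ran opposite to the other collagens named, at 143 CPM in Myog-low and 748 CPM in Myog-high cells (log2 2.38, 2.33 to 2.43). Ogn (osteoglycin) was at 121 against 317 CPM (log2 1.38), and Lamb3 at 20.4 against 44.1 CPM (log2 1.08).

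Of 16 other measured remodelling genes (of 24 listed), 9 were lower and 2 higher. Plaur, the urokinase receptor, was at 15.8 CPM in Myog-low and 2.26 CPM in Myog-high cells (log2 -2.37). Adamts10 stood at -2.17. The metalloproteinases Adam19 and Mmp15 were higher, at 1.06 and 1.04, and Adam12 had a ratio of 0.92. Of 17 measured regulators of matrix genes (of 20 listed), 9 were lower and 2 higher. Ccn2, a matricellular growth factor, stood at -2.65, the transcription factor Creb3l1 at -2.62 and Snai2 at -2.32. Tgfb3 and Smad3, a ligand and a mediator of TGF-beta signalling, stood at 1.51 and 1.22, and Tgfb2 at 0.14.

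Of the lists for other cell types, summed fibroblast markers moved in the same direction as the matrix genes, at 211 to 215 CPM in the files of Myog-low and 64.6 to 67.8 CPM in those of Myog-high cells. Col3a1 (160 against 57.1 CPM), itself among the matrix genes described here, and Ly6a made up most of this sum. Its direction is therefore not independent of the matrix genes. Ly6a, which is not among them, had a log2 ratio of -2.46. Summed pericyte and smooth muscle markers moved the other way, at 618 to 629 and 2547 to 2566 CPM. Abcc9 (log2 3.83) and Acta2 (2.32) were higher, Notch3 and Rgs5 (-2.37) lower, and Cspg4 stood at -0.88. Tenocyte markers stood at 63.1 to 65.9 and 124 to 125 CPM, nearly all of it Scx (log2 1.05). The part of these markers in the matrix ratios was not tested. Endothelial markers summed to 1.22 to 1.80 and 0.312 to 0.719 CPM, and immune markers to 0.952 to 1.65 and 0.564 to 0.762 CPM. Glial markers summed to 1.90 to 2.26 and 1.74 to 2.15 CPM. Without the 167 of 5481 kept cells that held Pdgfra, Dcn, Lum or Dpt, the count of matrix genes lower in Myog-high cells was again 24. Col3a1 and Ly6a were not used to pick these few cells, and the count had little room to change.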

How the data were processed

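The authors deposited whole-number UMI counts for each gene in each barcode. Per the file headers they come from Cell Ranger 7.1.0. The submitters' processing notes name Cell Ranger 3.1.0 and the builds mm10 and GRCm39. Which build was used for counting, and whether introns were counted, is not given in the sources used here. Coordinates are GENCODE M21 on GRCm38 (46 of 46 genes matched by identifier).

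Values were computed per file from summed counts and averaged over 4 files, with Python 3.11.15, numpy 2.4.6 and scipy 1.17.1. Ratios use CPM plus a pseudocount of 1. Intervals are exact Poisson, binomial or conditional binomial and cover counting error only. No count test was run, since the files share cells. Scripts were tested on simulated data. No doublet caller was run. Named were genes of at least 20 CPM past 2-fold, the 3 highest and 3 lowest of each contrast, and the same extremes of each other list for Myog. One gene that this rule names is not reported here. Members and lists were chosen with earlier results of these data known. Alternatives left out single files or doubtful cells and changed scaling, pseudocount, level minimum and cell bins. Leaving out single genes from the fibrillar share, and the Malat1 comparison, were added after the data were seen.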

Additional observations from a re-analysis of the deposited data

Results flagged for a closer look

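Of 96 values compared over the 4 files, 3 had 1 file apart from the others, where chance gives about 5%. The log2 ratio of Col1a2 in Myog-high over Myog-low cells was -1.85 in replicate 1 and -1.69 on average in the other files. Its log2 ratio in cells with over cells without Pax7 was 0.998 in replicate 1 and 0.481 on average in the others. The level of Timp2 was 262.9 CPM in replicate 2 and 264.5 CPM on average in the others.

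The log2 ratio of Timp2 in Myog-high over Myog-low cells was 0.043 in cycling cells and -0.32 in non-cycling cells, with opposite signs in every file. The difference was not tested.

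The 463 barcodes left out of the comparisons also held matrix RNA. The 46 genes summed to 4334 CPM of their UMIs without mitochondrial genes (4274 to 4449 over the files), against 2879 CPM in kept cells.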

How the results depend on the processing

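No paired analysis was possible because there is 1 group. In the Myog comparison the count of genes lower ranged from 24 to 28 over the alternatives, with 0 higher under each. Cycling cells alone were not among the alternatives, and within them 15 were lower, with 5.35% of all genes lower. In the Pax7 comparison, 1 gene was higher without replicate 4 (0 to 1 over the files left out), 2 with Pax7 read in any unthinned file, 2 in non-cycling cells and 15 in all kept cells. In the cycling comparison, 3 genes were lower without Malat1-poor cells, 2 with means of per-cell CPM, 3 from 100 CPM of Mki67 and Top2a, and 0 from 500 CPM. In all kept cells 0 were lower and 4 higher. Shares over all genes under these Pax7 and cycling alternatives are not given here, so these counts are not set against other genes. All kept cells mix levels of Myog. The fibrillar difference was -9.51 points with means of per-cell CPM. Without single genes it was -9.02 (Lama2), -7.80 (Hspg2), -8.52 (Col5a2) and -9.20 (Col3a1), and without Lama2 and Hspg2 together -1.33. Leaving out each file in turn gave -10.7 to -10.3. The cause was not tested. Of 114 such comparisons 98 stayed within 1.5 times the reported count or within the 95% interval, and of 1568 for single genes 1297 stayed within the interval, and 0 ratios past 2-fold changed sign. Smaller ratios whose interval left out 0 did: 1 of 31 for Myog (Timp2, 0.21 when centred and 0.26 with TMM), 2 of 22 for Pax7 (Timp1, 0.67 in all kept cells, and Sparc, from 0.07 to as low as -0.07) and 15 of 23 for cycling, 14 of them in all kept cells and 3 from 500 CPM (Col5a2, Lamb2 and Tnc, at 0.03 to 0.07). With 1 sample, no difference could be set against variation between animals or cultures.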
